A study of Mus musculus with 6 samples.

Results

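The 10 transcripts described here, *C1qa*, *C1qb*, *C1qc*, *Tyrobp*, *Fcer1g*, *Laptm5*, *Lyz2*, *Cd74*, *Cd68* and *Lgmn*, are made by macrophages and microglia alike, and they were taken by name from the 24421 genes listed. All 10 were listed once and all 10 passed the filter on low values (a mean of at least 0.5 CPM over the 6 libraries). They were measured by RNA-seq in hippocampal astrocytes of adult C57BL/6 mice, isolated with magnetic beads against the astrocyte surface antigen ACSA-2. Both groups were Siglech dtr/dtr, so both carried the allele that places the diphtheria toxin (DT) receptor under the control of *Siglech*, a gene of microglia. The PBS group (3 libraries) received PBS and the DT group (3 libraries) received DT at 50 μg/kg, intraperitoneally, 2 days before the hippocampi were taken. Each library was a pool of 2 mice, and the pools came from separate experiments. According to the methods of the study, cells bearing CD11b, which include microglia and macrophages, had been removed with beads before the astrocytes were collected, so these transcripts were read in what remained.

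Microglia and macrophages share an equipment for recognizing and digesting what they engulf. C1q, assembled from the A, B and C chains, tags debris and synapses and starts the classical complement pathway. TYROBP (DAP12) and the Fc receptor gamma chain (*Fcer1g*) are adaptors whose ITAM motifs carry the signal of receptors such as TREM2 and the Fc gamma receptors into the cell. Engulfed material is digested in lysosomes that hold CD68, LAPTM5, lysozyme (*Lyz2*) and the asparaginyl endopeptidase legumain (*Lgmn*), while CD74 escorts MHC class II molecules to the same compartment.

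The libraries held from 21704891 to 32933975 reads assigned to genes. The astrocyte list of 15 genes summed to between 66382 and 76838 CPM in every library, against 177 to 215 CPM for the 10 transcripts. Most of the latter sum was *Lgmn*, and which cells supplied its reads was not tested. Without *Lgmn*, the other 9 summed to between 38.3 and 54.0 CPM after PBS and to between 36.0 and 43.9 CPM after DT. *Gfap*, the intermediate filament of reactive astrocytes, rose from 1017 ± 114 to 3859 ± 348 CPM (SD, n = 3 per group). *Siglech* itself was at 1.68 ± 0.63 CPM after PBS (SD, n = 3) and had no read in any DT library. According to the paper, the allele considerably lowers Siglec-H expression in homozygotes, the genotype of both groups.

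Of the 10 transcripts, *Cd68* rose after DT and none of the others passed the threshold in either direction (limma on log2(CPM + 0.1), adjusted p under 0.05 over 15137 genes). Across all genes tested, 0.555% were called higher and 0.159% lower. The 3 C1q genes, *Laptm5*, *Tyrobp*, *Lyz2* and *Cd74* had estimates below 0, from -0.65 to -0.08 on the log2 scale, and *Fcer1g* and *Lgmn* had estimates of 0.28 and 0.09. The median log2 fold change of the 10 was -0.19, beside a median of -0.00524 over all genes tested. The call of *Cd68* was made in 7 of 17 alternatives and lost in 10, while the number of the 10 called lower was 0 in all of them. Among the 7 were the fits of the recovered reads with edgeR and DESeq2. In those fits 0.575% (edgeR quasi-likelihood), 1.26% (edgeR exact) and 1.5% (DESeq2) of genes were called higher, and 0.159%, 0.476% and 0.648% lower. In a bulk sample, fewer cells of a type and less RNA per cell cannot be told apart.

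**Figure D1:**
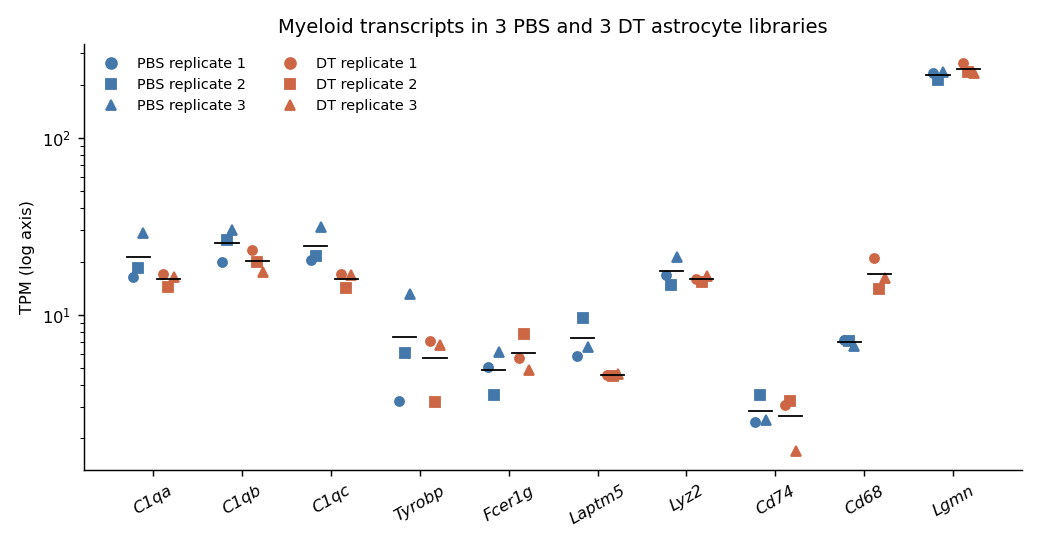
Level of each transcript in TPM (log axis) in the 3 PBS libraries (blue) and the 3 DT libraries (orange); each point is 1 library, its shape gives the replicate number, and the bar is the group mean. *Cd68* lay between 6.69 and 7.20 TPM after PBS and between 14.0 and 21.0 TPM after DT, and *Lgmn* stood above 212 TPM in every library.

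Per length, the transcripts spanned a wide range. *Lgmn* was the highest at 227 ± 12.4 TPM after PBS (SD, n = 3), at percentile 95.9 of the genes tested. *C1qb*, *C1qc*, *C1qa* and *Lyz2* followed, with PBS means of 25.4, 24.3, 21.2 and 17.6 TPM, and each of these overlapped its neighbour in the order. *Tyrobp*, *Laptm5* and *Cd68*, at 7.50, 7.36 and 7.00 TPM, formed a lower tier whose neighbours overlapped as well. *Fcer1g* at 4.90 TPM and *Cd74* at 2.85 TPM closed the order, and *Cd74* was the lowest of the 10 in every PBS library, between 2.46 and 3.53 TPM. After DT the order was *Lgmn* (244 TPM), *C1qb* (20.2 TPM), *Cd68* (17.0 TPM), *Lyz2* (16.0 TPM), *C1qa* and *C1qc* (both 15.9 TPM), *Fcer1g* (6.10 TPM), *Tyrobp* (5.69 TPM), *Laptm5* (4.57 TPM) and *Cd74* (2.68 TPM). *Cd68* thus stood 8th after PBS and 3rd after DT, where its range overlapped those of *C1qb* and *Lyz2*.

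Together the 10 transcripts made up 0.0346 ± 0.0031% of all TPM after PBS and 0.0349 ± 0.0026% after DT (SD, n = 3 per group). *Lgmn* alone was between 61.6% and 70.9% of their sum. Without it, the other 9 summed to 97.3, 111 and 146 TPM in the PBS libraries and to 115, 96.5 and 101 TPM in the DT libraries, and these ranges overlapped. The C1q chains were 58.3%, 59.8% and 61.5% of them in the PBS libraries and 50.0%, 50.2% and 49.9% in the DT libraries, while the share of *Cd68* went from 4.57% to 7.40% after PBS to 14.5% to 18.3% after DT. Neither share overlapped between the groups. Both are shares of the same sum, which includes *Cd68*, so a rise of *Cd68* lowers the C1q share by arithmetic. They are therefore not separate observations, and no test was made of the shares.

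*Cd68* encodes a heavily glycosylated lysosomal membrane protein of macrophages and microglia. It lies on the minus strand of chromosome 11 of mm10 from 69664213 to 69666153 (GENCODE M21). It was at 3.13, 2.98 and 2.89 CPM in the PBS libraries, from 63 to 99 reads each (CV 3.98%, and 11.6% from counting alone). In the DT libraries it was at 8.86, 5.82 and 6.80 CPM, from 156 to 203 reads each. Every DT library was thus above every PBS library, which was the case for 8.75% of the genes tested, and DT replicate 1 was the highest. On the log2(CPM + 0.1) scale it rose by 1.21 (SE 0.19, limma adjusted p = 0.0350), a 2.31-fold rise with a 95% confidence interval of 1.70 to 3.13. With 3 libraries against 3, an exact permutation test of the CPM cannot go below p = 0.1, the value found. The estimate stayed between 1.01 and 1.34 in all alternatives, but the call was lost in 10 of 17, among them each of the 6 fits that left out 1 library (adjusted p = 0.0757 without DT replicate 2 to adjusted p = 0.123 without DT replicate 1) the fit without a filter (adjusted p = 0.0657) and the fit with the replicate number as a block (adjusted p = 0.0510). The labels do not say whether libraries of the same number in both groups share an experiment.

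*Eif4a1*, a translation initiation factor gene on the same strand, ends 782 bases before *Cd68* begins, and it was looked at after the values of *Cd68* had been seen. It stood at 134 ± 8.43 CPM after PBS and 151 ± 8.68 CPM after DT (SD, n = 3 per group), which did not pass the threshold (log2 fold change 0.17, limma adjusted p = 0.460). No annotated gene overlaps *Cd68*.

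The 250 bases before the RefSeq start are shown for *Cd68*, the transcript that rose, and for *C1qb* (RefSeq, GRCm38.p6, minus strand, 5′ to 3′). *C1qb* was the C1q chain of highest mean TPM in each group, though its range overlapped that of *C1qc* after PBS. These genes are shown since in both the window lies wholly before the GENCODE gene. The *Cd68* window is chr11:69666171-69666420 and the *C1qb* window chr4:136886201-136886450. Capitals mark the letters GAGGAA on either strand, a core bound by PU.1, the ETS factor of the myeloid lineage, and the AP-1 motif TGANTCA.

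Cd68: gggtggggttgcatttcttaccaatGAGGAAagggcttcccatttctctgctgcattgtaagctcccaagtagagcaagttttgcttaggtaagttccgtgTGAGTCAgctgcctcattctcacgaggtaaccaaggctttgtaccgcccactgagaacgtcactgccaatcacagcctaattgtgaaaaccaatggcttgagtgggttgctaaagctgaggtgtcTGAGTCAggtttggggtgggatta

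C1qb: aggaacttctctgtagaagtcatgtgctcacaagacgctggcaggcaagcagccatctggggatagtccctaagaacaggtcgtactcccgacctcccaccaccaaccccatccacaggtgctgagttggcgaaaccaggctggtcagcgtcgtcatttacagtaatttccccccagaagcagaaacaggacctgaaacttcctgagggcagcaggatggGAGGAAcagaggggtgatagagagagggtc

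Windows were held for 7 of the 10 genes. GAGGAA on either strand was in 4 of them (*C1qb*, *C1qc*, *Laptm5* and *Cd68*) and in 23.3% of all 32851 promoter windows of this length. In *C1qb* the match begins 30 bases before the start and in *Cd68* 225 bases before it. TGANTCA was in 1 of the 7, *Cd68*, which holds it at 149 and at 24 bases before the start. Of all windows, 6.75% held this motif and 0.338% held it at least 2 times. The ETS-IRF composite motif (GGAA and GAAA with any 2 bases between them) was in 0 of the 7 and in 2.3% of all windows. These matches describe the letters only.

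The 3 C1q genes lie side by side on the minus strand of chromosome 4 within 18.7 kb, *C1qa* from 136895917 to 136898803, *C1qc* from 136889804 to 136893065 and *C1qb* from 136880129 to 136886187. *C1qc* was at 7.55, 7.60 and 11.2 CPM in the PBS libraries and at 6.20, 4.97 and 5.93 CPM in the DT libraries. The groups did not overlap, which held in this direction for 7.57% of the genes tested. The difference on the log2 scale, -0.60 (SE 0.19, 95% confidence interval -1.03 to -0.16), did not pass the threshold over all genes (limma adjusted p = 0.340).

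*C1qa* was at 6.17, 6.69 and 10.7 CPM after PBS and at 6.42, 5.23 and 5.98 CPM after DT. *C1qb* was at 7.37, 9.47 and 10.9 CPM after PBS and at 8.60, 7.02 and 6.28 CPM after DT. Both overlapped between the groups, and neither passed the threshold (log2 fold changes -0.37 and -0.33, limma adjusted p = 0.610 and adjusted p = 0.593). PBS replicate 3 was the highest of the PBS libraries for all 3 chains. Without it, the log2 fold changes of *C1qa*, *C1qb* and *C1qc* were -0.13, -0.20 and -0.41. The sum of the chains was 25.9 ± 6.14 CPM after PBS and 18.9 ± 2.08 CPM after DT (SD, n = 3 per group), and the PBS mean was 22.4 CPM without that library. Of 10 endothelial genes, all had estimates below 0 and 0 were called. The list summed to between 880 and 1400 CPM after PBS and to between 733 and 881 CPM after DT, and its part in the C1q values was not tested.

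Ratios between transcripts were taken within each library, and no test was made of them. *C1qb* was between 1.04 and 1.44 times *C1qa* in TPM, with overlapping groups. *C1qc* was 1.25, 1.16 and 1.08 times *C1qa* in the PBS libraries and 0.992, 0.981 and 1.02 times in the DT libraries, so that this ratio was lower in every DT library. *Cd68* in contrast went from 0.223 to 0.383 of the mean C1q level (geometric mean of the 3 chains, TPM) after PBS to 0.876 to 1.11 after DT. The mean log2 ratio of *Cd68* to C1q was -1.72 ± 0.40 after PBS and -0.03 ± 0.17 after DT (SD, n = 3 per group). The ratio of *Lgmn* to C1q also lay apart, from 7.81 to 12.4 after PBS and from 13.9 to 14.7 after DT. The ratios of *Cd74* to C1q and of *Fcer1g* to *Tyrobp* overlapped.

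**Figure D2:**
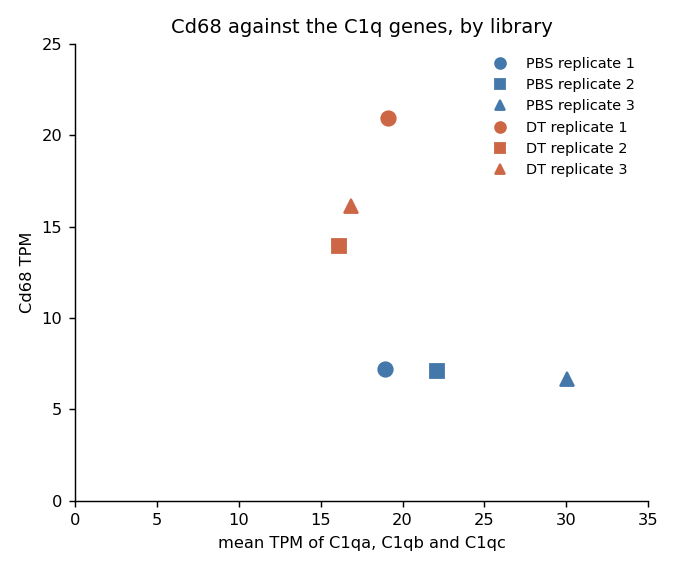
*Cd68* in TPM (vertical axis) against the arithmetic mean TPM of *C1qa*, *C1qb* and *C1qc* (horizontal axis); each point is 1 library, blue for PBS and orange for DT, with the shape giving the replicate number. The DT libraries lie above the PBS libraries in *Cd68*, at 14.0 to 21.0 against 6.69 to 7.20 TPM, while the C1q levels of the groups overlap.

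C1q acts at the head of the classical pathway. Of 8 other genes of this pathway, 7 were in the table and 6 were tested, of which 2 were called higher and 0 lower. *C4b*, which encodes complement C4, rose from 223 to 740 mean CPM (log2 fold change 1.72, adjusted p = 8.20e-05), and *C3*, the central component, from 13.7 to 35.2 mean CPM (log2 fold change 1.34, adjusted p = 0.00214). The proteases that complete C1 with C1q had estimates near 0, with *C1ra* at -0.04 and *C1s1* at 0.16.

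*Tyrobp* was at 0.645, 1.18 and 2.57 CPM in the PBS libraries and at 1.40, 0.617 and 1.31 CPM in the DT libraries, from 14 to 56 reads each. PBS replicate 1 and PBS replicate 3 differed 3.99-fold, more than the groups did. The log2 fold change was -0.25 with a 95% confidence interval of -1.41 to 0.91, and it turned to 0.24 without PBS replicate 3. *Fcer1g* was at 1.20, 0.784 and 1.38 CPM after PBS and at 1.31, 1.72 and 1.09 CPM after DT, a difference of 0.28 on the log2 scale (limma adjusted p = 0.812). Both adaptors overlapped between the groups.

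Among 24 genes of ITAM-linked and Fc receptors and their signaling proteins, 23 were in the table and 15 were tested, of which 1 was called higher and 1 lower, and the median estimate was -0.24 on the log2 scale. The gene called lower was *Siglech*, whose product signals through TYROBP. *Siglech* and *Trem2* are also on the list of homeostatic microglia genes given below. The gene called higher was *Fcgr2b*, the inhibitory Fc gamma receptor, which carries no ITAM, from 1.12 to 5.80 mean CPM (log2 fold change 2.36, adjusted p = 0.0413). *Trem2*, a partner of TYROBP, was at 1.73 and 0.569 mean CPM (log2 fold change -1.39, adjusted p = 0.337), and *Fcgr3*, a partner of the Fc receptor gamma chain, at 5.24 and 2.50 mean CPM (log2 fold change -1.03, adjusted p = 0.194). In both, every DT library was under every PBS library, without passing the threshold. This held for 5 of the 15 tested genes of the list, beside 7.57% of all genes tested. *Clec5a* and *Fcgr1*, further receptors of the list, overlapped between the groups (log2 fold changes 0.05 and -0.14).

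*Laptm5*, a lysosomal membrane protein of blood cells that dampens receptor signaling, lies on the plus strand of chromosome 4 from 130913125 to 130936141. It was at 4.88, 7.78 and 5.42 CPM after PBS and at 3.80, 3.64 and 3.75 CPM after DT. The highest DT library was 1.04 times the lowest, and all lay under the PBS libraries, of which replicate 2 was the highest. The CV between the DT libraries was 2.18%, where counting alone gives 10.3%, so they lay closer together than counting alone would give. The estimate was -0.65 on the log2 scale (SE 0.20, limma adjusted p = 0.323), and -0.45 without PBS replicate 2. By an unadjusted p under 0.05 with limma, *Laptm5* and *C1qc* were the 2 of 10 transcripts on the lower side, beside 4.51% of all genes tested.

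*Lyz2*, which encodes the lysozyme of myeloid cells, was at 6.22, 5.22 and 7.67 CPM after PBS and at 5.85, 5.43 and 5.93 CPM after DT. Its log2 fold change was -0.13 with a 95% confidence interval of -0.53 to 0.27, which leaves out a 2-fold change in either direction. Its neighbour and near-identical paralog *Lyz1* was at 0.174 CPM at most, so few reads were assigned to it. Without PBS replicate 3, the log2 fold change of *Lyz2* was 0.00939.

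*Lgmn* was read 3262 to 4507 times per library, more than any other of the 10. It was at 152, 134 and 150 CPM in the PBS libraries and at 171, 146 and 147 CPM in the DT libraries, and the groups overlapped. The estimate of 0.09 on the log2 scale had a 95% confidence interval of -0.09 to 0.28 (limma adjusted p = 0.750). *Lgmn* and *Cd68* were the lysosomal transcripts with estimates above 0, and *Laptm5* and *Lyz2* those below. A list of 24 other lysosomal genes, all of them tested, had a median estimate of -0.03 on the log2 scale.

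*Cd74*, the invariant chain of MHC class II, was at 1.11, 1.69 and 1.24 CPM after PBS and at 1.48, 1.56 and 0.829 CPM after DT, from 19 to 56 reads each. The groups overlapped, at a log2 fold change of -0.08 with a 95% confidence interval of -0.85 to 0.68. Of 11 further genes of the MHC class II pathway, 5 were tested, with 0 called higher and 1 lower. That gene was *Ctss*, the protease that trims CD74 (log2 fold change -2.14, adjusted p = 0.000612). It is also on the list of homeostatic microglia genes given below. *H2-Ab1*, which encodes a class II beta chain, was at 1.32 and 1.12 mean CPM, and *H2-Aa* and *H2-Eb1* were under the filter.

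**Figure D3:**
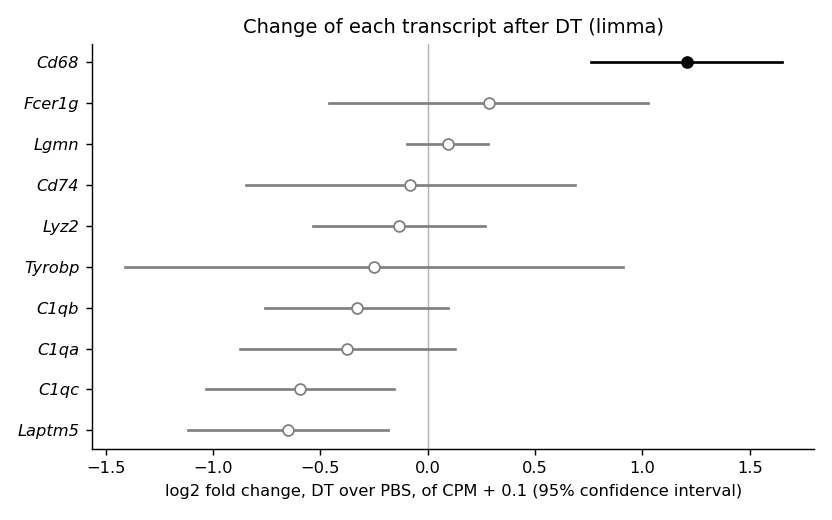
Log2 fold change after DT of each transcript, on the scale of log2(CPM + 0.1), with the 95% confidence interval from limma as a bar; the filled point is past an adjusted p of 0.05 over all genes tested. *Cd68*, at 1.21, is the only filled point, and the intervals of *C1qc* and *Laptm5* lie below 0 without passing the adjusted threshold.

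Genes listed for homeostatic microglia and for border macrophages are set beside the 10 shared transcripts. The lists do not separate these cells gene by gene. According to the paper, *Itgam*, *Cx3cr1* and *Aif1*, all on the microglia list, are expressed similarly among mononuclear cells. Of 20 genes of homeostatic microglia, 19 were tested, and 10 were called lower and 0 higher (median log2 fold change -1.41). They summed to between 278 and 323 CPM in the PBS libraries and to between 155 and 176 CPM in the DT libraries. *Cx3cr1*, the fractalkine receptor, had a log2 fold change of -2.96 and *Csf1r*, the receptor on which microglia depend, of -1.74. *Sall1* (-0.04) and *Hpgds* (0.02) had estimates near 0, and *Siglech* was the gene of this list without a read after DT.

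Of 12 genes of border macrophages, 9 were tested, and 3 were called higher and 0 lower (median log2 fold change 1.46). They summed to between 40.4 and 61.7 CPM in the PBS libraries and to between 100.01 and 113 CPM in the DT libraries. Called higher were *Mrc1*, the mannose receptor (1.49), the hyaluronan receptor gene *Lyve1* (3.21) and *F13a1*, a coagulation factor subunit (1.38). None of the 12 was at 0 in all libraries. The median of the 10 shared transcripts, -0.19, lay between those of the lists, as did the median of all genes tested (-0.00524). The estimates of the 10 ran from -0.65 to 1.21. The part of microglia or border macrophages in their levels was not tested.

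**Figure D4:**
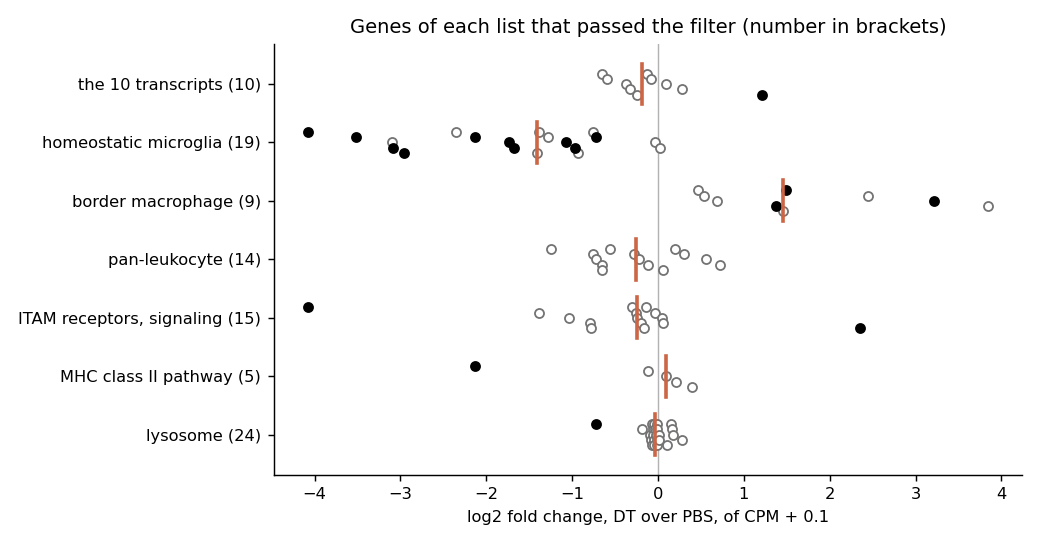
Log2 fold change after DT, on the scale of log2(CPM + 0.1), of the tested genes of each list; each point is 1 gene, filled where the adjusted p is under 0.05, and the orange bar is the median of the list. The 10 shared transcripts have a median of -0.19, the homeostatic microglia genes of -1.41 and the border macrophage genes of 1.46, and most of the lysosome genes lie close to 0.

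The genes whose level over the 6 libraries was most like that of *Cd68*, by Pearson's r of log2(CPM + 0.1), were *Car8*, *Mien1*, *Igfbp5*, *Dkk3* and *Cnn3*, with r from 0.992 to 0.997 among 13361 genes with a mean of at least 2 CPM. For the mean of the C1q genes they were *Arid4b*, *Mrpl50*, *Abcb10*, *Peo1* and *Gulp1*, with r from 0.982 to 0.993. For *Lgmn* they were *Thbs4*, *Rpl18*, *Scara3*, *Axl* and *Evi5*, with r from 0.975 to 0.990. With 6 libraries, 276, 102 and 100 genes had an r over 0.9 with these profiles, so likeness over 6 libraries is a description only.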

How the data were processed

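RNA-seq of MACS-isolated hippocampal astrocytes was analysed in 3 PBS and 3 DT libraries. Per the methods and labels, the authors trimmed reads with Trim Galore 0.5.0, mapped them strand-specifically to mm10 with HISAT2 2.1.0, removed rDNA reads with bedtools 2.25.0, quantified genes with StringTie 1.3.5 and compared the groups with edgeR 3.24.3. They deposited 1 CPM and 1 TPM value for each gene and library, and further columns with the results of their own test (p, q and log fold change), which were not used. The deposited CPM signal is relative to scaled library sizes, so a column sums to between 980428 and 1026170. Its values were whole multiples of 1 read in 100% of cases (tolerance 0.1 reads), which gave the recovered reads.

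Genes with a mean of at least 0.5 CPM were compared on log2(CPM + 0.1) with limma 3.58.1 (R 4.3.3, variance trend, two-sided, Benjamini-Hochberg). Such fold changes understate those of low genes. The limma p-values weigh the difference between the groups against the spread between pools, which limma moderates over the genes tested. edgeR 4.0.16 (quasi-likelihood and exact) and DESeq2 1.42.0 were run on the recovered reads. Further alternatives were pseudocounts of 0.5 and 1, no filter, a mean of at least 2 CPM, TPM, quantile normalization, no variance trend, a replicate block and leaving out each library. The fits were tested on simulated data. All 10 transcripts are named, with the called genes of each list or examples of it. The members and lists were chosen with earlier results of these data known. The design had assumed plain CPM. Coordinates are GENCODE M21 (mm10). No protein sequences are given. The calls within the lysosome list are not reported here. The paralog *Lyz1*, *Eif4a1* and the AP-1, PU.1 and ETS-IRF motifs were looked at after the values had been seen.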

Additional observations from a re-analysis of the deposited data

How the results depend on the processing

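The values without 1 library ranged from -0.69 to 0.24 for *Tyrobp*, from -0.26 to 0.00939 for *Lyz2* and from -0.23 to 0.19 for *Cd74*. Over the 17 alternatives, *Cd68* stayed higher after DT, and the directions of *C1qa*, *C1qb*, *C1qc*, *Fcer1g*, *Laptm5* and *Lgmn* held as well (*Fcer1g* over 16, since it was under the filter at a mean of 2 CPM). The direction turned for *Tyrobp* without PBS replicate 3 (0.24) and without DT replicate 2 (0.0896), for *Lyz2* without PBS replicate 3 (0.00939) and for *Cd74* without PBS replicate 2 (0.0839) and DT replicate 3 (0.19). The number of the 10 called higher was 1 as reported and 0 with no filter, with quantile normalization, without the variance trend and with the replicate block, and 0 in each of the 6 fits without 1 library. The number called lower was 0 in all of them. Over all genes, 84 were higher and 24 lower. Without the variance trend these counts were 35 and 11, with the edgeR exact test 191 and 72, with DESeq2 227 and 98, and without 1 library from 39 to 72 higher and from 9 to 20 lower. The cause was not tested; the fits without 1 library rest on fewer samples.

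Whether libraries of the same number were paired was not settled. The deviations of same-numbered libraries correlated at 0.115, 0.0105 and 0.118. Those of differently numbered libraries correlated at -0.124 to 0.0115. The replicate block gave 79 calls on the higher side and 30 on the lower, and under it *Cd68* had an adjusted p of 0.0510. *Tyrobp*, *Fcer1g* and *Cd74* had 14 to 56 reads per library. The CV between the PBS libraries was 68.0%, 27.2% and 22.7%, where counting alone gives 19.6%, 19.2% and 17.9%, so that for *Tyrobp* the spread between pools was well over the counting error.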

Other observations

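A list of 16 genes of leukocytes in general, 14 of them tested, had 0 called in either direction, with a median log2 fold change of -0.25. *Ptprc*, which encodes CD45, was at 3.05 and 2.62 mean CPM, and *Spi1*, which encodes PU.1, at 1.32 and 1.53 mean CPM. The groups did not overlap for 2 genes that were higher after DT, *Lcp1* (0.72 on the log2 scale) and *Cyba* (0.20), and for 3 that were lower, *Ncf1* (-1.24), *Itgb2* (-0.76) and *Laptm5* (-0.65), where 8.75% and 7.57% of all genes tested did not overlap in these directions.

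The 8 neutrophil genes listed summed to 0.087 CPM at most and the 8 lymphocyte genes listed to 0.552 CPM at most. Of the monocyte genes, *Plac8* and *Chil3* had no read in any library and *Ccr2* had at most 16 reads. *Nr4a1* and *Ace*, which other cells also express, made up most of the monocyte list, which summed to between 45.4 and 61.2 CPM and had 0 genes called. Of the dendritic cell genes, *Itgax* had no read, and 3 of 8 were tested, with 0 called. These were *Zbtb46*, at 13.9 and 9.88 mean CPM without overlap between the groups (limma adjusted p = 0.285), *Flt3*, at 0.523 and 0.8 mean CPM, and *Clec9a*, at 0.524 and 0.823 mean CPM. The monocyte gene *Ly6c2* was at 1.31 and 1.01 mean CPM, and the related *Ly6c1*, on the endothelial list, at 29.6 and 23.7 mean CPM. Whether reads of *Ly6c1* were assigned to *Ly6c2* was not tested.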
